A study of Mus musculus with 2 samples.

Results

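Choroid plexus epithelial cells were picked out of 2 single-cell RNA libraries made from whole brains of adult mice, 1 from IL34LacZ/+ animals and 1 from IL34LacZ/LacZ animals. The design text gives IL34LacZ/+ as the wild type and IL34LacZ/LacZ as the knockout, so the control animals also carry 1 LacZ allele of Il34, the gene of the cytokine interleukin-34. The cells had been sorted as astrocytes and endothelial cells, a sort that is not named for choroid plexus. The sources used here give neither the sort markers nor the number of mice behind each library. A cell was counted as choroid plexus epithelium when its barcode held at least 1000 UMIs (counted RNA molecules) and 500 genes, at most 15% mitochondrial UMIs, at least 8% of UMIs from Ttr, at least 3 UMIs of Folr1, Kcnj13, Clic6, Prlr and Enpp2 together, and under 10% haemoglobin UMIs. By that rule 616 of 2843 kept barcodes were choroid cells, 355 of 1668 (21.3%, 95% interval 19.3 to 23.3) in the library labelled IL34LacZ/+ and 261 of 1175 (22.2%, 19.9 to 24.7) in the library labelled IL34LacZ/LacZ. The cells were chosen by their UMIs of Ttr and the other 5 markers, so those levels are a description and support nothing.

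The choroid plexus is a fringe of epithelium in the brain ventricles that makes cerebrospinal fluid and forms the barrier between blood and that fluid. Its cells pump sodium, chloride and bicarbonate toward the ventricle, with water following, and they carry vitamins, hormones and metals across. They are known for a very high output of transthyretin, the thyroid hormone and retinol carrier encoded by Ttr.

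The detection of the markers is a description, since their UMIs chose the cells. All 5 of Ttr, Folr1, Kcnj13, Clic6 and Enpp2 were detected in 318 cells (89.6%, 85.9 to 92.6) of the library labelled IL34LacZ/+ and in 247 cells (94.6%, 91.2 to 97.0) of the library labelled IL34LacZ/LacZ. The least detected of them was Clic6, a chloride channel protein, with a UMI in 91.8% and 96.2% of the cells. The median choroid cell gave 29.6% and 24.3% of its UMIs to Ttr, against 0.145% and 0.0940% in endothelial-marker cells and 0.126% and 0.0743% in astrocyte-marker cells, where a marker class holds kept cells with at least 3 detected markers of that type and more than of any other type. At the Ttr limit the nearest cells inside held 9.95% and 8.02%, and the nearest barcodes outside held 7.40% and 5.94%. At the haemoglobin limit they held 8.46% and 9.73% inside and 10.4% and 12.8% outside, where 6 and 17 barcodes failed on haemoglobin alone. No barcode failed on the other 5 markers alone, and the fewest UMIs of those markers in a choroid cell were 6 and 19.

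Choroid cells were deeply covered, with medians of 12150 and 13883 UMIs and of 2579 and 2798 genes per cell. Their summed counts came to 4742232 UMIs (29.1% of all UMIs of kept barcodes) and 3856636 UMIs (27.3%). The libraries shared 8 barcodes, 3 of which were choroid cells in 1 library and none in both. Scrublet marked 2 of 355 and 1 of 261 choroid cells as doublets. With 1 library per genotype no difference between genotypes could be tested, cells are not replicates, and every interval below covers counting error only. Il34 itself does not check the labels: it stood at 13.8 CPM (UMIs per 1000000) in the other kept cells of the library labelled IL34LacZ/+ and at 25.7 CPM in those of the library labelled IL34LacZ/LacZ, and the sources used here do not place the LacZ insertion relative to the counted 3-prime end.

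The mitochondrial limit took unequal parts of the 2 libraries. Without it the choroid barcodes numbered 428 and 465, and the limit removed 73 of them (17.1%, 13.6 to 21.0) in the library labelled IL34LacZ/+ and 204 (43.9%, 39.3 to 48.5) in the library labelled IL34LacZ/LacZ. Among all other barcodes it removed 22.7% (20.7 to 24.7) and 35% (32.5 to 37.6). The removed choroid barcodes were not thin, with medians of 8204 and 10658 UMIs and Ttr shares of 24.1% and 22.7%. The cell closest to the limit held 14.92% in the first library, and the nearest barcode outside held 15.07% in the second. The cells described below are therefore a larger part of the choroid barcodes of 1 library than of the other, and the part this plays in the differences between the libraries was not tested.

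**Figure D1:**
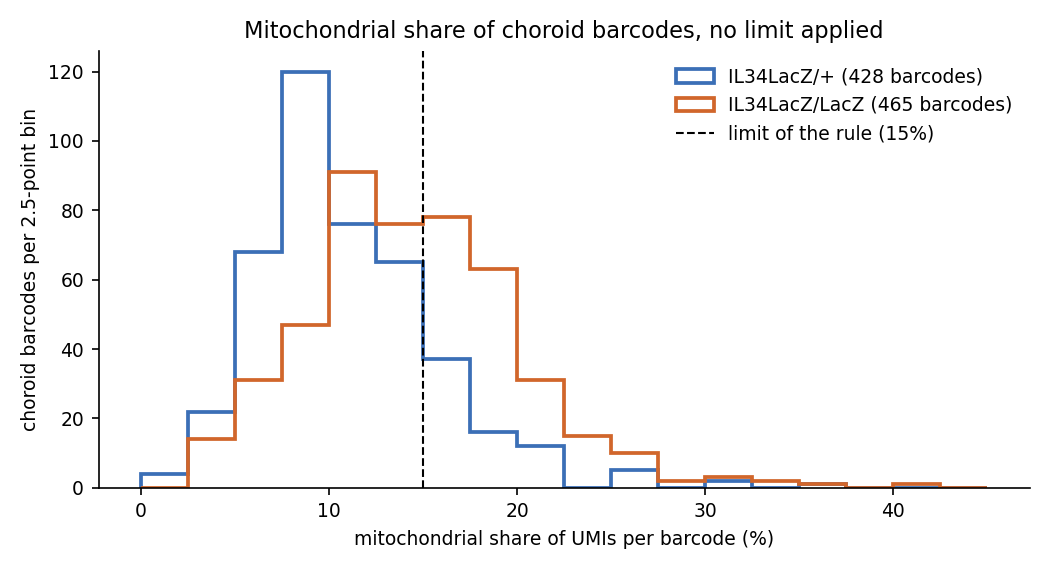
Number of choroid barcodes (vertical axis) by mitochondrial share of UMIs per barcode in percent (horizontal axis), in bins of 2.5 points, for 428 barcodes labelled IL34LacZ/+ and 465 labelled IL34LacZ/LacZ that meet every other criterion. The dashed line is the limit of 15%, and 43.9% of the barcodes labelled IL34LacZ/LacZ lie above it against 17.1% of those labelled IL34LacZ/+.

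The genes of highest ratio over all other kept cells are given as levels in CPM, because a count of 3-prime ends does not grow with transcript length. Of 520 genes with at least 200 CPM in both libraries, 48 were over 10 times more abundant in choroid cells than in the other kept cells. Sostdc1, a secreted antagonist of bone morphogenetic proteins, stood at 1112 and 1007 CPM and led with a ratio of 113. Kcne2, a potassium channel subunit, followed with 331 and 310 CPM (ratio 91.0), then Prlr, the prolactin receptor, with 684 and 819 CPM (ratio 90.2), and Folr1, the folate receptor that moves folate into cerebrospinal fluid, with 1078 and 1064 CPM (ratio 88.5). Cox8b, an isoform of cytochrome oxidase subunit VIII best known from muscle and brown fat, reached 482 and 580 CPM (ratio 83.1). The serotonin receptor gene Htr2c reached 261 and 406 CPM (ratio 77.2), the coagulation factor gene F5 467 and 431 CPM (ratio 70.2), and Kl, which encodes the ageing-related protein klotho, 802 and 872 CPM (ratio 63.1). The angiotensin-converting enzyme gene Ace was at 377 and 372 CPM (ratio 37.8). The other genes among the 25 of highest ratio were Ttr, Kcnj13, Atp2b3, Calml4, Krt18, Pcp4, Ltc4s, Clic6, Ociad2, Spint2, Ppp1r1b, Hemk1, Tbc1d9, Fam81a, Chchd10 and Wfdc2, with ratios down to 24.1. In the 3 largest other marker classes, Sostdc1 was between 0 and 5.63 CPM and Kcne2 between 0.381 and 3.51 CPM in each library. Enpp2, which encodes the lysophospholipase autotaxin, was the most abundant marker after Ttr at 14580 and 14086 CPM, with a UMI in every choroid cell of both libraries.

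Otx2, the homeobox factor that the choroid plexus needs for its development and upkeep, stood at 189 and 218 CPM against 6.84 CPM in the other kept cells, and the forkhead factor gene Foxj1 at 55.5 and 48.7 CPM. Promoters of the 25 genes (250 bases before to 50 bases after a transcription start, RefSeq, GRCm38.p6, read on the gene's own strand) were therefore searched on both strands for the OTX motif TAATCC and the forkhead motif TGTTTAC. RefSeq entries matched 19 of the 25 genes, with 24 promoters. The OTX motif was in 1 of the 24 (4.17%) against 7.06% of all 32851 promoters, and the forkhead motif in 1 of the 24 (4.17%) against 3.65%. These shares are near those of all promoters, and a match is a description, not a bound site. The matches are shown because they are the only ones among the genes of highest ratio: an alternative start of Prlr (chr15:10223656-10223955, plus strand), with the forkhead match beginning 215 bases before the start in capitals, and Ace (chr11:105967698-105967997, plus strand), with the OTX match beginning 27 bases before the start in capitals.
Prlr: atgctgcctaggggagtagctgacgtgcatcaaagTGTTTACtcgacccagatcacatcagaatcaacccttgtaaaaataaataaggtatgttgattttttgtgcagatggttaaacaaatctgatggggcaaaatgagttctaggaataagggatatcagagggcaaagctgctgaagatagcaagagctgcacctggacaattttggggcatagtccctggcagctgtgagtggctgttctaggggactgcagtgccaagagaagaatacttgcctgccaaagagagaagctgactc
Ace: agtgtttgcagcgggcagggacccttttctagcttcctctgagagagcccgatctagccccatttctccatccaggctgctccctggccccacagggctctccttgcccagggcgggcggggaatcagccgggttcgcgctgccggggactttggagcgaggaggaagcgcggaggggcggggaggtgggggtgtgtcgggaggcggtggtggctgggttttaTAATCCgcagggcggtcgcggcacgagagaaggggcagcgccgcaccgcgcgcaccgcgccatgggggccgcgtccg

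Most genes of fluid secretion on the list were detected well enough to compare. Of 27 genes for ion and water transport 21 were measured, meaning at least 100 UMIs over both libraries and at least 20 CPM in either. Of the sodium pump, the beta subunit gene Atp1b1 was at 705 and 717 CPM and the pump regulator Fxyd1 at 1397 and 1273 CPM. The water channel gene Aqp1 was at 89.0 and 81.2 CPM, with a UMI in 57.5% and 66.7% of the cells, and at 3.12 CPM in the other kept cells. Bicarbonate supply and transport were represented by the carbonic anhydrases Car2 (678 and 655 CPM) and Car12 (179 and 206 CPM) and the carriers Slc4a5 (125 and 146 CPM) and Slc4a10 (268 and 322 CPM). The sodium-potassium-chloride cotransporter gene Slc12a2 was at 250 and 275 CPM and its regulatory kinase gene Stk39 at 424 and 531 CPM. Kcna3 had no UMI in either library.

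Among secreted proteins, 23 of 30 were measured. Apoe, the main lipid carrier of the brain, stood at 4125 and 3664 CPM and Ecrg4, an augurin precursor, at 3289 and 2730 CPM. Clu (clusterin) was at 2325 and 1908 CPM, Cst3 (cystatin C) at 2434 and 2155 CPM, Ptgds (prostaglandin D synthase) at 2155 and 1677 CPM, and Igfbp2 (a binding protein of insulin-like growth factors) at 1837 and 2055 CPM. Igf2, a growth factor released into the fluid, was low at 44.9 and 35.8 CPM.

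Carriers of vitamins, organic solutes and metals were spread over a wide range of levels. The monocarboxylate carrier gene Slc16a8 was at 148 and 129 CPM against 1.79 CPM in other cells, and the folate carrier gene Slc46a1 at 23.4 and 26.2 CPM. Slc22a17, the lipocalin receptor, was at 1150 and 1097 CPM and the copper carrier gene Slc31a1 at 237 and 205 CPM. The metal reductase gene Steap1 was at 210 and 194 CPM against 2.71 CPM in other cells. The zinc carrier gene Slc39a4 was at 32.7 and 25.4 CPM against 0.596 CPM. Mt3, a zinc-binding metallothionein, was at 2367 and 2318 CPM with a UMI in every cell.

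Barrier and cilium genes were detected too. Cldn2, the pore-forming claudin of leaky epithelia, was at 103 and 104 CPM, Cldn3 at 36.5 and 30.3 CPM and Cldn1 at 23.6 and 22.6 CPM, against 1.61, 0.688 and 0.275 CPM in other cells. The polarity gene Crb3 was at 57.8 and 60.4 CPM against 0.872 CPM. Of 32 genes of motile cilia 16 were measured, among them the radial spoke gene Rsph1 (188 and 197 CPM) and the calmodulin-like gene Calml4 (889 and 920 CPM). The dynein gene Dnah5 and the multiciliation regulator Mcidas had no UMI in either library. Ciliary genes are shared with ependymal cells: 46.5% and 49.4% of choroid cells held at least 3 of 7 ependymal markers, with Tmem212 at 0 in the library labelled IL34LacZ/LacZ, and the list's summed level was 446 and 439 CPM against 8550 and 7876 CPM in the 3 and 5 ependymal-marker cells.

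Genes that mark the position of a choroid plexus along the brain were uneven. The 15 genes of the hindbrain list found in the files, mostly Hox genes, had 3 UMIs in all in the library labelled IL34LacZ/+ and 17 in the library labelled IL34LacZ/LacZ. Six3, a homeobox factor of the anterior forebrain, had 205 and 168 UMIs (43.2 and 43.6 CPM, with a UMI in 33.5% and 37.5% of the cells) against 2.94 CPM in other cells. Emx1, a factor of the dorsal telencephalon, had 24 and 34 UMIs. Nr2f2, a nuclear receptor gene, had 459 and 441 UMIs and Bmp6, a bone morphogenetic protein gene, 243 and 230 UMIs. Beyond these, 4 of 14 forebrain genes (Lhx9, Dlx5, Wnt8b and Wnt3a) had no UMI in a choroid cell of either library. For the ventricle of origin the labels give nothing, since whole brains were used.

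Interleukin-34 and its partner were scarce in choroid cells. Il34 had 7 UMIs in 4 cells of the library labelled IL34LacZ/+ and 0 UMIs in the 261 cells of the other, where a count of 0 allows up to 0.778 CPM (3 counts). Csf1, the other ligand of the macrophage receptor Csf1r, had 16 and 13 UMIs (3.37 CPM in both). Tgfb2, a growth factor gene, had 756 and 597 UMIs (159 and 155 CPM). Inflammatory genes were mostly at or near 0: only 2 of 23 were measured, the adhesion molecule gene Vcam1 (151 and 163 CPM) and Lbp (395 and 423 CPM against 30.1 CPM in other cells), which encodes a lipopolysaccharide binding protein.

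Between the libraries most genes stood close together. Of 4637 measured genes 93.5% lay within 1.5-fold, with a median log2 ratio (IL34LacZ/LacZ over IL34LacZ/+) of 0.07. Calls required a ratio beyond 1.5-fold with 1 outside the interval. By that measure 264 genes (5.69%) were called higher in the library labelled IL34LacZ/LacZ and 37 (0.798%) lower, so that 87.7% of the called genes were higher. That share was 75.2% when Ttr, mitochondrial and haemoglobin UMIs were left out of the totals, 71.1% after each cell was thinned to 3000 UMIs and 73.5% without 4 cells described next. Ttr was at 290469 and 242542 CPM, a log2 difference of -0.26. Of the higher genes, 88 were over 10 times more abundant in other kept cells, and 78 had over 25% of their UMIs of the library labelled IL34LacZ/LacZ in 1 cell. Of the 37 lower genes, 9 were over 10 times more abundant elsewhere, and 10 had over 25% of their UMIs labelled IL34LacZ/+ in 1 cell. The shares over all measured genes are not given, so these counts only describe the called genes. With 1 library per genotype, genotype and library cannot be told apart.

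**Figure D2:**
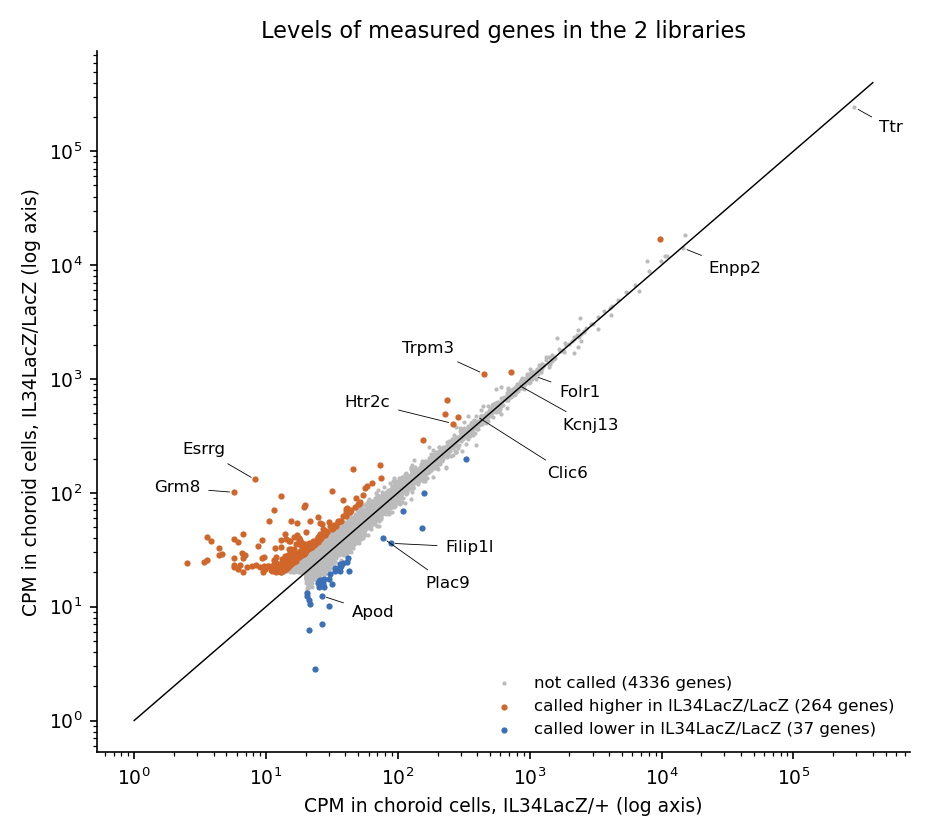
Levels of 4637 measured genes in choroid cells in CPM, IL34LacZ/+ on the horizontal axis and IL34LacZ/LacZ on the vertical axis, both log axes. Each point is 1 gene, orange points are the 264 genes called higher in IL34LacZ/LacZ and blue points the 37 called lower, and the line marks equal levels. The markers Ttr, Enpp2, Folr1, Kcnj13 and Clic6 are not called.

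A set of 4 choroid cells carried much of the upward difference. They held over 200 UMIs of Trpm3, a calcium-permeable channel gene that hosts a microRNA and spans 856 kb on chromosome 19 (22139046 to 22995410, plus strand). The limit of 200 UMIs was set after the values had been seen. One cell of the library labelled IL34LacZ/+ held 230 Trpm3 UMIs, and 3 cells of the library labelled IL34LacZ/LacZ held 1557, 525 and 366, while the next highest cells held 28 and 87. The cell with 1557 was also the deepest, with 52385 UMIs, 7365 genes, a Ttr share of 15.3% and a mitochondrial share of 4.54%. It held 277 UMIs of Grm8, a glutamate receptor gene, 277 of Esrrg, an orphan nuclear receptor gene, and 430 of Htr2c. The cell with 525 held 81, 101 and 217 of the same genes, the cell with 366 held 4, 62 and 58, and the cell with 230 held 0, 22 and 115. All 4 cells held Esrrg and Htr2c, and Grm8 was high in 2 of them. Without these 4 cells 114 genes were called higher and 41 lower of 4496, of which 106 and 32 had been called with them.

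The 10 genes of highest ratio were low in nearly all cells and high in these few. Grm8 had 27 UMIs in 21 cells labelled IL34LacZ/+ and 389 in 22 cells labelled IL34LacZ/LacZ, a log2 ratio of 4.15 (3.58 to 4.77), and 71.2% of the second count came from 1 cell. Without the 4 cells it had 27 and 27 UMIs and a log2 ratio of 0.33 (-0.49 to 1.16). Esrrg had 39 and 506 UMIs, a log2 ratio of 4.0 (3.52 to 4.50), and kept 2.29 (1.5 to 3.15) without the 4 cells, on 17 and 66 UMIs. The others were the cadherin gene Cdh18 (3.33 with the 4 cells and 0.92 without), Pdzrn3 (2.84 and 0.95), Agbl4 (2.59 and 0.51), Kazn (2.19 and 0.78), Ccser1 (2.02 and 0.63), Shroom3 (1.97 and 1.06), Fras1 (1.87 and 0.39) and Frmpd4 (1.81 and 0.57). Trpm3 itself had 447 and 1111 CPM, a log2 ratio of 1.31 (1.24 to 1.39) that became 0.29 without the 4 cells, and Htr2c went from 0.64 to -0.05.

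The 10 genes of lowest ratio did not rest on single cells: none had more than 16.4% of its UMIs of a library in 1 cell. Filip1l, an actin-linked regulator of cell movement, had 422 UMIs in 211 cells labelled IL34LacZ/+ and 139 in 100 cells labelled IL34LacZ/LacZ, with a log2 ratio of -1.30 (-1.59 to -1.02). Plac9, a small secreted protein gene, had 369 and 153 UMIs (-0.97, -1.25 to -0.70), and Sfrp5, a secreted Wnt antagonist, had 131 and 57 UMIs (-0.90, -1.38 to -0.44). The rest of the 10 lowest were Sap18b (-1.01), Ftl1-ps1 (-0.89), Traf5 (-0.82), the paraoxonase gene Pon1 (-0.80), Ecm2 (-0.78), the laminin gene Lamb2 (-0.72) and the monocarboxylate carrier gene Slc16a12 (-0.71). Sap18b and Ftl1-ps1 have near-identical copies, so their counts are uncertain. Without the 4 cells these 10 genes ranged from -1.28 to -0.71.

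Of the 114 genes called higher without the 4 cells, 38 had over 10 times the level in other kept cells. Among these were Nrxn3 (log2 2.71), Kcnip4 (1.89) and Slc1a2 (1.69). The genes below were of high ratio once those 38, and the gene classes left out by name, were set aside. The carboxypeptidase-like gene Cpxm2 had 38 and 75 UMIs, a log2 ratio of 1.31 (0.73 to 1.92), and the splicing factor gene Srsf5 had 344 and 642 UMIs, a log2 ratio of 1.23 (1.04 to 1.43). Csgalnact1, an enzyme of chondroitin sulphate synthesis, had 69 and 106 UMIs (0.95, 0.50 to 1.41). The 18S ribosomal RNA gene copy Rn18s-rs5 had 9693 and 17054 CPM (0.82), with reads that other copies could also give. These genes were named after their values had been seen.

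Genes called higher were long. The median gene called higher spanned 198 kb of genome, the median gene called lower 17.1 kb and the median measured gene 24.0 kb. Of choroid genes that span up to 10 kb, 1.37% of 1239 were called higher, and the share was 1.27% of 1417 from 10 to 30 kb, 4.31% of 1321 from 30 to 100 kb, 16.4% of 511 from 100 to 300 kb and 59.0% of 144 above 300 kb. Without the 4 cells the last share was 29.4% of 109 genes. In the same bin it was 5.93% in endothelial-marker cells, 4.96% in oligodendrocyte-marker cells and 3.16% in astrocyte-marker cells. The median log2 ratio rose with span in those classes too. Between genes up to 10 kb and genes above 300 kb it went from -0.39 to 0.07, -0.08 to 0.09 and -0.10 to 0.04, in that order. In choroid cells it went from 0.03 to 0.74. Of endothelial genes 31.0% were called lower up to 10 kb and 6.78% above 300 kb. These differences between classes were not tested. The choroid share called higher above 300 kb ran from 18.8% of 64 genes, when each gene's top 2% of cells were dropped, to 76.4% with at most 10% mitochondrial UMIs. The typical cell hardly differed: genes over 100 kb gave 5.34% and 5.47% of the UMIs of the median choroid cell. Those shares were 41.2% and 42.1% in endothelial-marker cells, so long genes are a small part of choroid RNA.

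**Figure D3:**
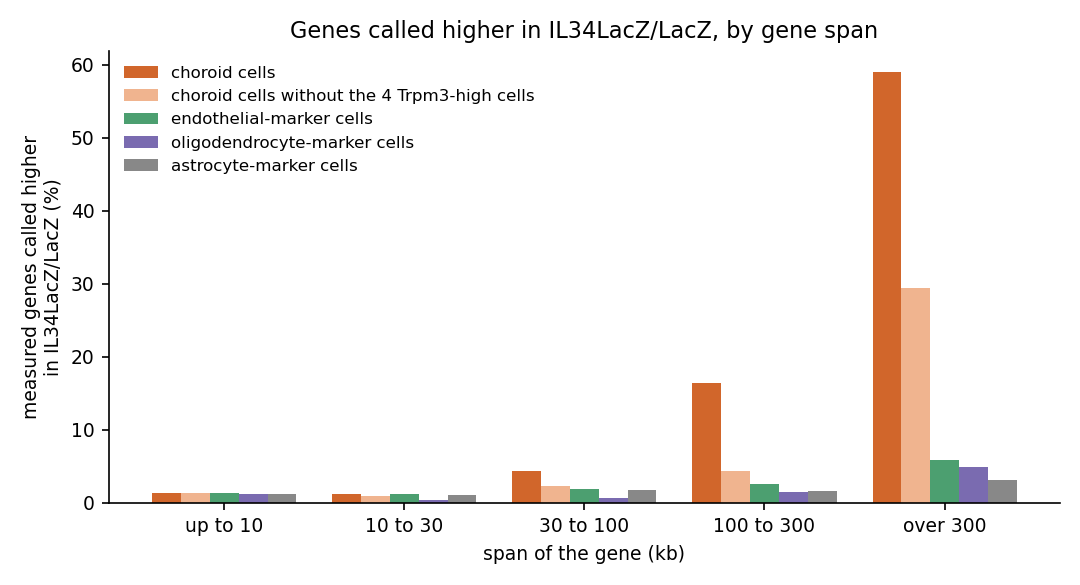
Percent of measured genes called higher in IL34LacZ/LacZ (vertical axis) by genomic span of the gene in kb (horizontal axis), for choroid cells with and without the 4 cells of over 200 Trpm3 UMIs and for 3 other marker classes. The choroid share reaches 59.0% above 300 kb, 29.4% without the 4 cells, and stays at 5.93% or below in the other classes.

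By role, counts of called genes are given beside the 5.69% called higher and 0.798% called lower over all measured genes, and 0 calls in a short list are no result about that list. None of the 5 markers, 8 vitamin carriers, 16 organic solute carriers, 10 iron and copper genes, 66 nuclear genes of the respiratory chain, 16 heat shock genes or 7 interferon and antigen presentation genes that were measured was called in either direction. Their median log2 ratios were -0.02, 0.11, -0.08, 0.07, 0.07, 0.15 and -0.21, beside 0.07 over all measured genes. The respiratory chain genes were the tightest, between -0.12 and 0.20, and made up 5.41% and 5.69% of UMIs. Of the 21 ion and water transport genes only Trpm3 was called, and of the 23 secreted protein genes only Apod, a lipocalin, was called lower (26.8 and 12.4 CPM, log2 -1.11), with 39.4% of its UMIs labelled IL34LacZ/+ in 1 cell. Of the 14 transcription factors measured, Lmx1a (12.2 and 23.6 CPM, log2 0.95), Zfhx4 (7.17 and 22.3 CPM, 1.64) and Sox2 (17.9 and 29.6 CPM, 0.72) were called higher. Only Sox2 of these was still measured and called without the 4 cells, at 0.72.

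Receptors, junctions and cilia held 3 of 11, 1 of 12 and 4 of 16 measured genes called higher, beside 5.69% of all measured genes. Of 11 receptors measured, Htr2c (log2 0.64), the neuregulin receptor gene Erbb4 (12.9 and 93.1 CPM, 2.86) and the bone morphogenetic protein receptor gene Bmpr1a (13.5 and 24.9 CPM, 0.88) were called higher. The list's median was 0.22, and -0.00 without the 4 cells. Among 12 junction genes only Pard3 was called (0.95). Of the 16 ciliary genes 4 were called higher, namely Rfx3 (1.19), Gmnc (0.75), Cfap44 (0.94) and Ccdc39 (0.64), while the list's median was 0.10. Without the 4 cells Erbb4 (1.13) remained called among the receptors. Of all its UMIs labelled IL34LacZ/LacZ, 57.9% lay in 1 cell, and other kept cells held 864 CPM. When each gene's top 2% of cells were dropped, Erbb4 stood at 0.32 and was no longer measured. Among ciliary genes Rfx3 (0.60) and Cfap44 (0.71) remained called, and Gmnc (0.54) and Ccdc39 (0.44) did not. Foxj1, the main switch of motile cilia, was at -0.19 (-0.46 to 0.09).

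In the secretory pathway of the endoplasmic reticulum 2 of 20 measured genes were called higher, beside 5.69% of all measured genes. Manf, a stress-induced secreted factor, had 287 and 466 CPM, with 1362 and 1799 UMIs in 313 and 251 cells and a log2 ratio of 0.70 (0.60 to 0.80). Creld2, which is induced together with Manf under such stress, had 28.7 and 45.9 CPM (0.68, 0.35 to 1.01). Both stayed called without the 4 cells, at 0.68 and 0.65. The chaperone genes Calr (606 and 848 CPM, 0.48) and Hyou1 (32.9 and 31.4 CPM, -0.07) did not pass 1.5-fold, and the list's median was 0.08. Hspa5, the chaperone counted in the heat shock list, stood at 0.18 (1018 and 1150 CPM).

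Some called genes owed a large part of their UMIs to 1 cell. Fos, an immediate early gene, had 17 and 158 UMIs in 17 and 11 cells (log2 3.51), and 48.1% of the second count was in 1 cell. Nrxn3 (2.69) and Kcnip4 (1.87), which mark neurons, had 53.6% and 65.2% of their UMIs labelled IL34LacZ/LacZ in 1 cell, and the astrocyte gene Slc1a2 (1.66) had 47.4%. Haemoglobin genes were higher, Hba-a1 at 1.47, Hba-a2 at 1.10 and Hbb-bs at 0.66, and 41.2% of the Hba-a1 UMIs labelled IL34LacZ/LacZ lay in 1 cell. Hba-a1 and Hba-a2 are near-identical copies. When each gene's top 2% of cells were dropped, Hba-a1 stood at 0.03. Of 4 measured circadian genes Rora (1.18) and Nr1d2 (0.70) were called higher, and neither was called without the 4 cells (0.41 and 0.58). Rora had 39.8% of its UMIs labelled IL34LacZ/LacZ in 1 cell, and Nr1d2 only 4.04%. When each gene's top 2% of cells were dropped, Rora stood at 0.27 and Nr1d2 stayed called at 0.71. Of 11 measured genes of lipid and prostaglandin metabolism Abca1, a cholesterol exporter gene, was called higher (0.66, and 0.51 without the 4 cells) and Apod lower. Among the 13 mitochondrial protein genes only mt-Nd6, the light-strand transcript, was called, lower at 326 and 198 CPM (-0.72, -0.85 to -0.59).

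RNA of other cell types was present at low levels, and its origin, doublets included, was not tested. The 5 erythrocyte markers, mostly the haemoglobin genes that the rule limits, gave the largest sum, 0.129% and 0.241% of choroid UMIs. At least 3 of them were present in 335 and 253 choroid cells (94.4% and 96.9%). The 7 endothelial markers came to 0.0155% and 0.0134% of choroid UMIs, the 7 astrocyte markers to 0.00643% and 0.0156% and the 7 oligodendrocyte markers to 0.0289% and 0.0145%, with every one of these markers detected. At least 3 markers were present in 23 and 7 cells for endothelium, 6 and 10 for astrocytes and 38 and 24 for oligodendrocytes. The 7 microglial markers came to 0.0396% and 0.0269%, above the endothelial, astrocyte and oligodendrocyte sums in both libraries. Of these 7, C1qc was at 0 in both libraries, and C1qa and C1qb were at 0 in the library labelled IL34LacZ/LacZ. Only 1 of these 7 was measured, and 2 and 0 choroid cells held at least 3 of them. The size of that sum is therefore no measure of microglial RNA. Border macrophage markers had 2 and 7 UMIs, with Cd163, Lyve1, Ms4a7 and F13a1 at 0 in both libraries. The part of this RNA in the differences above was not tested, beyond the values given without single cells.

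Choroid cells varied among themselves mainly in a few abundant transcripts. Cells were thinned to 3000 UMIs each, which left 343 and 250 cells after 12 and 11 shallower ones were set aside. The variance over the mean, which is 1 for pure counting noise, had a median of 1.11 and 1.10 over 1464 genes. It passed 2 in both libraries for 19 genes, of which 11 were mitochondrial or ribosomal RNA. Ttr was far the highest at 41.7 and 48.3, and its thinned count ran from 623 to 1124 UMIs between the 10th and the 90th percentile of cells in the first library and from 518 to 968 in the second. Its share of all UMIs enters every other thinned value.

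Beside Ttr and the mitochondrial and ribosomal RNA, Enpp2 had ratios of 5.88 and 5.75, and Apoe 2.89 and 3.38. Trf, the transferrin gene, had 5.72 and 3.79, with no UMI in 45.2% and 42.8% of thinned cells and up to 32 and 14 UMIs in others. Cox8b had 3.31 and 3.33, with no UMI in 51.9% and 47.2% of the cells and a 90th percentile of 4 and 5 UMIs. A2m, a protease inhibitor gene, had 3.66 and 2.37 and no UMI in 81.6% and 75.2% of the cells. Bsg, a chaperone of monocarboxylate carriers, had 2.22 and 2.48, and Pcp4, a calmodulin regulator, 2.13 and 2.26. Trpm3 had 1.87 and 23.6 and Htr2c 1.86 and 7.21, so both were high only in the library that held 3 of the 4 cells above. Across cells of 1 library, Bsg and Igfbp2 had Spearman correlations of 0.40 and 0.39, Apoe and Bsg of 0.35 and 0.34, and Ttr and Ecrg4 of 0.33 and 0.43. Ttr and the ferritin gene Fth1 had -0.40 and -0.25. These values describe 343 and 250 cells that share a library and a fixed total of UMIs.

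Dct encodes dopachrome tautomerase, an enzyme of melanin synthesis that is best known from pigment cells. Its gene lies on chromosome 14 (118012790 to 118052244, minus strand). In choroid cells it had 47 UMIs (9.91 CPM, 7.28 to 13.2) in the first library, labelled IL34LacZ/+, and 43 UMIs (11.1 CPM, 8.07 to 15) in the second. A Dct UMI was present in 35 of 355 cells (9.86%, 6.96 to 13.4) and in 36 of 261 (13.8%, 9.85 to 18.6), and no cell held more than 3. Most positive cells, 24 and 30, held a single UMI. The intervals overlap. The RefSeq promoter of Dct (chr14:118052197-118052496, minus strand, GRCm38.p6, read on the gene's strand) holds 1 OTX match, beginning 119 bases before the start and shown in capitals, a motif that 7.06% of all promoters hold.
Dct: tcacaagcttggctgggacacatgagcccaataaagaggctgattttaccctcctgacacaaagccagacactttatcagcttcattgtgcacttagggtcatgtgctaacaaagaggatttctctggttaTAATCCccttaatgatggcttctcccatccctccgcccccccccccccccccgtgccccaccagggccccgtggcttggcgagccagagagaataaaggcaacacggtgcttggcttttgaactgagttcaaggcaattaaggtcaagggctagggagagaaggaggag

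The other large classes are set beside this. Endothelial-marker cells held a Dct UMI in 0 of 489 and 1 of 276 cells (0.362%), at medians of 4666 and 5127 UMIs, and the 0 allows up to 1.14 CPM (3 counts). Astrocyte-marker cells had 0 of 252 and 0 of 114, at medians of 8597 and 9030 UMIs, which allows up to 1.30 and 2.63 CPM. Oligodendrocyte-marker cells, as deep as choroid cells with medians of 13724 and 16471 UMIs, had 7 of 255 (2.75%, 1.11 to 5.57) and 10 of 243 (4.12%, 1.99 to 7.44), at 2.53 and 4.08 CPM. Outside choroid cells 673 of 682 and 758 of 784 Dct UMIs lay in 1 cell of each library, which held 5 of 9 melanocyte markers. The share of choroid cells with a Dct UMI followed depth: in the shallowest, middle and deepest groups of equal size it was 3.36%, 11% and 15.3% in the first library and 5.75%, 13.8% and 21.8% in the second. After thinning to 3000 UMIs it was 3.21% (11 of 343, 1.61 to 5.67) and 3.20% (8 of 250, 1.39 to 6.21). A cell without a Dct UMI is therefore not shown to lack the transcript.

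**Figure D4:**
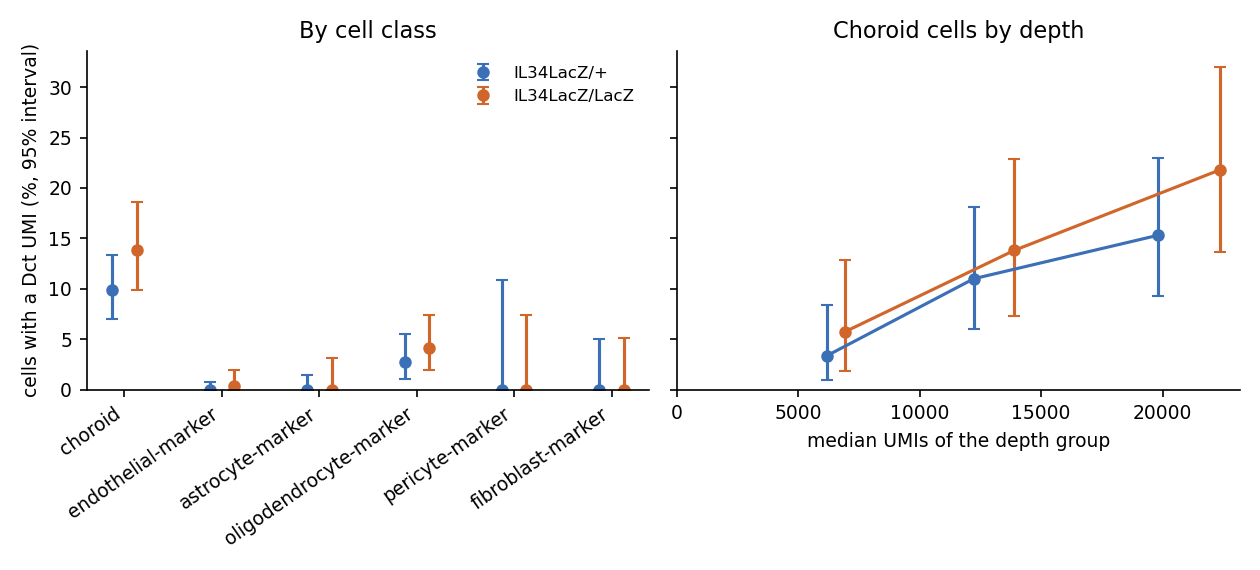
Percent of cells with a Dct UMI (vertical axis) with exact 95% intervals, by cell class on the left and, on the right, for choroid cells in 3 depth groups placed at their median UMIs. Points are libraries, IL34LacZ/+ in blue and IL34LacZ/LacZ in orange, and the choroid share rises from 3.36% to 15.3% and from 5.75% to 21.8% with depth.

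Other melanin genes were partly present in choroid cells. Oca2, a melanosome transporter gene, had 201 and 172 UMIs (42.4 and 44.6 CPM) against 1.01 CPM in other kept cells. Slc24a5, a cation exchanger of pigment cells, had 358 and 251 UMIs (75.5 and 65.1 CPM) against 20.2 CPM. Mitf, the regulator of pigment genes, had 199 and 262 UMIs (42.0 and 67.9 CPM), below the 92.7 CPM of other kept cells. Rab38, a melanosome trafficking gene, had 16 and 30 UMIs. Tyr, which encodes tyrosinase, the first enzyme of melanin synthesis, and Slc45a2 had 0 UMIs in both libraries, which allows up to 0.633 and 0.778 CPM. Pmel, the melanosome matrix gene, had 7 and 10 UMIs. Tyrp1, Mlana, Gpr143, Gpnmb, Rab27a, Mlph and Mc1r, also on the melanin list, had at most 10 UMIs in either library. Oca2 and Slc24a5 did not pass 1.5-fold between the libraries. Mitf was called higher at log2 0.70 (0.42 to 0.97) and stood at 0.20 without the 4 cells.

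Cells with and without a Dct UMI were compared on sums per library with edgeR's quasi-likelihood test, with the library as a block and Dct left out. Depth went with the split: positive cells had medians of 16734 and 18116 UMIs and negative cells 11479 and 13322. Ttr shares were 28.1% and 24.7% in positive cells and 29.7% and 24.2% in negative cells. Of 8621 genes tested, 9 (0.104%) were higher and 39 (0.452%) lower in positive cells at a false discovery rate of 5% with Benjamini-Hochberg adjustment. The 4 sums leave 1 residual degree of freedom. DESeq2 called none, with 11 genes higher and 33 lower at an unadjusted p under 0.05, and edgeR without the library block called none either, with 143 higher and 202 lower at an unadjusted p under 0.05. The unadjusted counts of the blocked test were 235 and 289. Only 51.3% of tested genes had the same sign in both libraries.

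The genes higher in Dct-positive cells included choroid genes with small differences. Sostdc1 rose from 1088 to 1272 CPM in the first library and from 967 to 1190 CPM in the second (edgeR log2 0.27, adjusted p 0.00583). Cox8b rose from 455 to 661 and from 570 to 624 CPM (0.34, adjusted p 0.00296 in edgeR), Gpx8, a peroxidase gene of the endoplasmic reticulum, from 197 to 249 and from 192 to 278 CPM (0.44, adjusted p 0.0152 in edgeR), and Nt5dc2 from 43.8 to 68.2 and from 43.5 to 79.0 CPM (0.76, adjusted p 0.037 in edgeR). Tlcd2 and Cpxm2 rose on few UMIs, with 12 and 11 and with 16 and 22 in the positive cells. The growth hormone receptor gene Ghr and the haemoglobin genes Hba-a1 and Hba-a2 completed the 9. The haemoglobin ratios were -0.05 and 0.02 in the first library and 0.77 for both genes in the second. Of the 9 genes, 5 had over 25% of the UMIs of positive cells in 1 cell of either library. In the second library 1 cell held 79.6% of these UMIs for Hba-a1, 75.9% for Hba-a2 and 83.3% for Ghr. Each of the 9 lost its call under at least 1 alternative. When cells were thinned to 3000 UMIs before Dct was read, Sostdc1 (-0.33), Cox8b (-0.86) and Nt5dc2 (-0.33) were on the lower side, and without the 4 cells of high Trpm3 the counts were 5 higher and 22 lower.

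The genes lower in Dct-positive cells were mostly genes of other cell types. Other kept cells held over 10 times the level of choroid cells for 32 of the 39, a class that held 7.47% of all genes tested, and 33 had over 25% of the UMIs of negative cells in 1 cell of either library. Flt1, a vascular endothelial growth factor receptor gene of endothelium, had 105 UMIs in negative and 2 in positive cells of the first library and 98 and 0 in the second (adjusted p 4.36e-07 in edgeR, with a log2 ratio of -3.01 in the first library). The others of the 10 lowest were Hmcn1, Ccbe1, Slc24a2, Jun, Grm3, Tmtc2, Nkain2, Plcb1 and Mdga2. Oligodendrocyte markers came to 88.8 and 110 CPM in positive and to 320 and 153 CPM in negative cells, and astrocyte markers to 57.1 and 58.5 against 65.4 and 177 CPM. Plac9, which was not among the 32, fell from 85.9 to 25.4 and from 43.5 to 21.9 CPM (log2 -1.42, adjusted p 2.51e-05 in edgeR), and Cdkn1c, a cell cycle inhibitor gene, from 489 to 423 and from 448 to 326 CPM (-0.32, adjusted p 0.0487 in edgeR). When cells with at least 3 markers of another type were left out, ependymal and melanocyte lists apart, 9 genes were higher and 3 lower, and those called in both settings were Hba-a1, Hba-a2 and Ghr above and Plac9 and Cdkn1c below. With all choroid cells, Hba-a1, Hba-a2 and Ghr had most of their positive-cell UMIs of the second library in 1 cell, as given above.

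The gene lists held almost no called gene, as did the whole table, where 0.104% of genes were higher and 0.452% lower, so these counts say little about the lists. The 5 markers, whose UMIs chose the cells, lay between -0.03 and 0.09 in edgeR's log2 ratio, a description only. None of the 4 melanin genes tested passed the threshold, and their ratios ran from -0.33 to 1.02 with a median of 0.24, beside 0.00 over all tested genes. Among 23 ion and water transport genes none passed (median 0.09), and among 23 secreted protein genes Sostdc1 alone did (median 0.09). Of 26 ciliary genes and of 66 respiratory chain genes none passed (medians -0.08 and 0.02). At this depth, with single UMIs marking most positive cells, smaller differences were not detectable.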

How the data were processed

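The libraries came from the 10x Chromium kit for 3-prime ends, version v3.1, per the labels' protocols, 1 from IL34LacZ/+ and 1 from IL34LacZ/LacZ mice. The deposited values are raw UMI counts per gene and barcode from Cell Ranger 7.1.0, per the file headers, and the submitters' processing notes name the build mm10, also GRCm38.p6. The sources used here state neither an annotation release nor a correction for free RNA. Every deposited barcode held at least 500 UMIs.

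The members and gene lists were chosen with earlier results of these data known. Counts of choroid cells were summed per library and given as CPM of that sum. Ratios between libraries carry an exact conditional binomial 95% interval and shares an exact Clopper-Pearson interval, both for counting error only. Genes named were those of the lists, the 10 of highest and lowest ratio among called genes (leaving out mitochondrial, ribosomal protein, haemoglobin and Y-linked genes, gene models and those with over 10 times the level in other cells), the 10 of highest and lowest ratio for Dct among called genes, the 25 of highest ratio over other cells and the 15 most variable. Genes outside the rule are named as such. Doublets were marked with Scrublet in scanpy 1.11.5, which marked 0.180% and 0.596% of kept barcodes, and were not removed. At such a low share in the first library the caller cannot be relied on, so results were also computed without cells that held markers of another type. Sums by Dct state were tested with edgeR 4.0.16 (TMM, filterByExpr, quasi-likelihood test, Benjamini-Hochberg, false discovery rate 5%, R 4.3.3), with DESeq2 1.42.0 as an alternative. Scripts were tested on simulated data. Alternatives changed the criteria for cells, the totals, the thresholds and the depth. Leaving out the cells of over 200 Trpm3 UMIs, and leaving out cells with markers of another type apart from the ependymal and melanocyte lists, were chosen after seeing the data. Some genes are not reported here.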

Additional observations from a re-analysis of the deposited data

Results flagged for a closer look

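The choroid barcodes over the mitochondrial limit lie outside the cells described above and make up 43.9% of choroid barcodes in the library labelled IL34LacZ/LacZ, 204 of 465, against 17.1% in the library labelled IL34LacZ/+. They met every other criterion, Ttr included, and the comparisons leave them out. Their median Ttr share, a value that chose them, was 22.7% and 24.1% in the 2 libraries, in that order. Mitochondrial ribosomal RNA made up 5.79% and 4.98% of their UMIs, against 3.15% and 2.34% inside the limit.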

How the results depend on the processing

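Without a mitochondrial limit the choroid share of the library labelled IL34LacZ/LacZ was 24.9%, its Dct-positive share 9.25% and 121 genes were called higher there. With at most 10% mitochondrial UMIs the shares were 15.5% and 10.6%, 485 genes were higher, and 0 and 9 genes were higher and lower with Dct. Without cells holding 3 markers of another class the shares were 9.41% and 9.87%, the second Dct share 8.62%, 65 genes were higher, and 0 and 3 differed with Dct. Keeping ependymal- and melanocyte-marker cells gave 17.3% and 18.2%, with 3 lower with Dct. A Ttr limit of 16% gave 94 genes higher, and 5 and 8 with Dct. Without the 4 Trpm3-high cells 114 were higher, and 5 and 22 differed with Dct. Totals without Ttr, mitochondrial and haemoglobin UMIs gave 95 genes lower and means over cells 58. A minimum of 300 UMIs gave 59 higher and 7 lower, a 2-fold threshold 77 and 10, thinning 32 and 13, and leaving out the top 2% of cells 110 higher. Thinning put the Dct shares at 3.21% and 3.20%, and 2 Dct UMIs at 3.1% and 2.30%. For the Dct test, thinning gave 2 higher and 7 lower, 2 Dct UMIs 6 higher (1 of them, Ghr, also called with 1 UMI) and 1 lower, and no library block and DESeq2 each 0 and 0. Ratios with no test gave 204 and 204 in the first library alone and 170 and 292 in the second. Thinned to 1000 UMIs, 9 genes varied beyond 2.

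With Dct, the log2 ratios of Hba-a1 and Hba-a2 reversed to -1.12 and -0.91 (at most 10% mitochondrial), -0.04 and -0.08 (haemoglobin under 2%), -1.11 and -1.10 (without 3 markers of another class) and -1.16 and -0.73 (2 Dct UMIs). After thinning Nt5dc2 was -0.33, Sostdc1 -0.33 and Cox8b -0.86. The cause of these changes was not tested. Of 274 values for genes named for Dct, 159 kept their call, 104 lost it and 11 reversed. The alternative of at least 6 UMIs of the other 5 markers kept the same choroid cells, so its values could not change. Of 179 values for genes named between libraries none reversed and 37 moved. Settings that changed only the minimum of UMIs or the fold threshold leave each ratio as it is. Their values, counted among the 179, could neither move nor reverse. No paired analysis was possible because each genotype has only 1 library.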

Other observations

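Choroid barcodes over and inside the 15% mitochondrial limit were set side by side on non-mitochondrial UMIs, with no test. Of 5413 measured genes 11 were higher and 9 lower over the limit in both libraries, past 1.5-fold with intervals that left out 1. The amino acid carrier gene Slc38a2 stood at 47.3 CPM inside and 86.8 CPM over the limit in the library labelled IL34LacZ/+, and at 41.9 and 79.3 CPM in the library labelled IL34LacZ/LacZ. Cdkn1a, a cell cycle inhibitor gene induced by p53, stood at 12.3 and 38.6 CPM and at 10.7 and 19.3 CPM. Mns1, a gene of motile cilia, was lower over the limit, at 43.9 and 17.4 CPM and at 53.5 and 34.8 CPM. The 5 choroid markers had median log2 ratios of -0.00 and -0.02, and no gene list had a member called in both libraries. These genes were chosen after their values had been seen.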
